A study of Mus musculus with 36 samples.

Results

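Valsartan given from before the injury was compared with vehicle in the ligated left carotid artery of C57BL/6J mice, across all expressed genes. The members of the comparison were found by their strain, treatment and regimen labels: 3 valsartan libraries (Val 1, 2 and 3) and 3 vehicle libraries (Veh 1, 2 and 3), which are 6 of the 36 libraries of the study. Both groups were C57BL/6J (B6), had the same operation and were dosed for 16 days, starting 2 days ahead of ligation, with the artery taken 14 days after it. Val mice received valsartan at 27 mg/kg/day and Veh mice received vehicle at 2 mL/kg/day. The labels name no engineered allele, age, sex or litter, and each library is 1 artery. Side comparisons used valsartan and vehicle from the same strain dosed for 7 days from day 7 (the therapeutic regimen), the same drug pair in 129X1/SvJ mice on the 16-day regimen, and B6 mice given sacubitril/valsartan at 60 mg/kg/day on the 16-day regimen, with 3 libraries in each group. Sacubitril/valsartan adds an inhibitor of neprilysin, a peptidase encoded by Mme.

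Angiotensin II is cut from angiotensinogen (Agt) by renin (Ren1) and angiotensin-converting enzyme (Ace), and acts on the artery wall through the type 1 receptor, which mice encode in a pair of genes, Agtr1a and Agtr1b. Through this receptor it contracts smooth muscle and is known to induce genes of matrix production, cell growth and inflammation. Valsartan blocks that receptor. Ligation of the carotid stops its flow, after which smooth muscle cells of the wall multiply and lay down matrix.

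Val 1 stood apart from the other 5 libraries. Over 12414 well-expressed genes, its median absolute log2 distance to another library was 0.79 to 0.86 over 5 pairs, and 39.6 to 43.3% of genes differed by more than 2-fold. Val 2 and Val 3 were the closest pair, at a median of 0.12 and 1.09% of genes, and the 3 vehicle pairs lay at 0.18 to 0.22. Pairs of Val 2 or Val 3 with a vehicle library lay at 0.13 to 0.17, inside the range of the vehicle pairs and the valsartan pair. Total counts were 22.0, 22.2 and 23.76 M in Val 1, 2 and 3, against 22.52, 22.78 and 22.18 M in Veh 1, 2 and 3. Detected genes numbered 24210, 22624 and 22899 in Val 1, 2 and 3, against 22613, 22830 and 22695 in the vehicle libraries.

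Transcripts of developing thymocytes and thymic epithelium were abundant in Val 1. Rag1 (chr2:101638282-101649501, minus strand), whose protein cuts DNA at the antigen receptor loci of immature lymphocytes, was at 1591, 7.31 and 0.24 CPM (counts scaled to one common library total) in Val 1, 2 and 3, against 5.78, 0.137 and 0.0411 CPM in Veh 1, 2 and 3. Prss16, a serine protease of thymic cortical epithelium, was at 999, 0.346 and 0.28 CPM in the valsartan libraries and at 0.221, 0.321 and 0.206 CPM in the vehicle libraries. Val 1 was far above each of the other 5 for both genes. The summed level of 20 thymocyte and T cell genes was 11942, 176.3 and 128 CPM in Val 1, 2 and 3, against 178.3, 137.5 and 81.9 CPM in the vehicle libraries. The summed level of 10 thymic epithelium genes was 2608, 14.4 and 6.03 CPM in the valsartan libraries, against 6.97, 9.62 and 5.14 CPM in the vehicle libraries. Val 1 ranked 1 of 36 for both sums, and 16 of the 36 libraries reached 10 CPM of Rag1. Among the markers at 0 outside Val 1 were Aire in Val 2, Rag2, Ptcra and Psmb11 in Val 3, Rag2 and Ptcra in Veh 2, and Psmb11 and Foxn1 in Veh 3.

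Other tissues that lie beside the carotid also varied between libraries of a group. Thyroglobulin (Tg) was at 1.87, 2543 and 0.959 CPM in Val 1, 2 and 3, against 1.37, 49.2 and 8.06 CPM in the vehicle libraries. Skeletal muscle actin (Acta1) was at 235, 199 and 197 CPM in the valsartan libraries, against 79.8, 1535 and 1206 CPM in Veh 1, 2 and 3, so that Veh 2 and Veh 3 were high. The brown fat uncoupling protein Ucp1 was at 414, 827 and 347 CPM in the valsartan libraries, against 1518, 1319 and 69.5 CPM in the vehicle libraries, with Veh 3 the lowest of the 6. Artery wall markers were present in all 6 libraries. Smooth muscle myosin (Myh11) was at 173, 279 and 402 CPM in Val 1, 2 and 3, against 402, 189.6 and 416 CPM in the vehicle libraries. The endothelial adhesion molecule Pecam1 was at 156, 230 and 248 CPM in the valsartan libraries, against 234, 206 and 270 CPM in the vehicle libraries. In whole-tissue RNA, fewer cells of a type and less RNA per cell cannot be told apart.

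**Figure D1:**
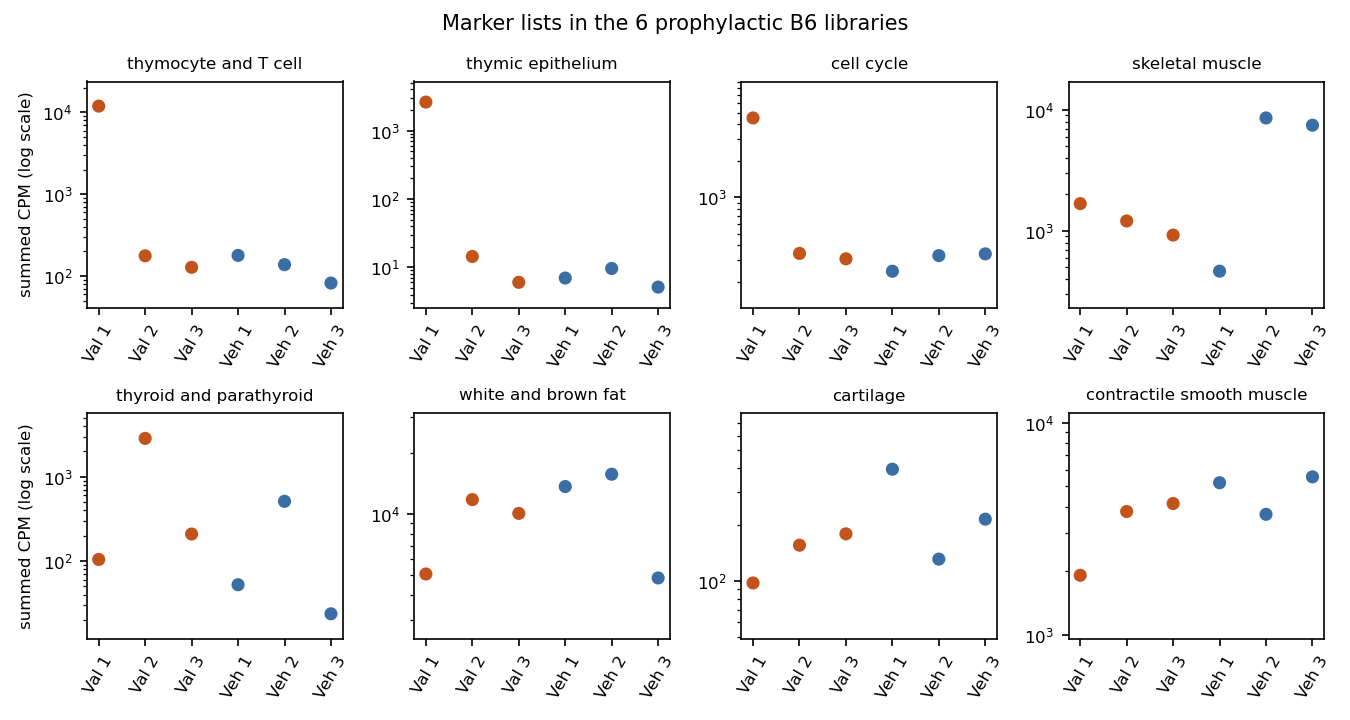
Summed CPM of 8 marker lists (log axis, 1 panel a list) in each of the 6 libraries, the valsartan libraries on the left in orange and the vehicle libraries on the right in blue, 1 point a library. Val 1 stands at 11942 CPM for thymocyte and T cell genes and at 4518 CPM for cell cycle genes, while skeletal muscle genes are highest in Veh 2 and Veh 3 and thyroid genes in Val 2.

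No gene passed a Benjamini-Hochberg adjusted p of 0.05 in edgeR's quasi-likelihood test of valsartan minus vehicle. The test covered 18628 genes, 0% of which were called, and the smallest adjusted p was 0.474, shared by 2202 genes. At an unadjusted p under 0.05 there were 1952 genes (10.5%), of which 1864 (10%) were higher and 88 (0.472%) lower in valsartan. Without Val 1 there were 82 such genes of 18951 (0.433%), 37 higher and 45 lower, and again 0 passed. This share lies far below the 0.05 level itself, with the spread estimated over all 12 groups. The absence of passing genes therefore does not show that Val 2 and Val 3 equalled vehicle. Without Val 2 or without Val 3 the counts at an unadjusted p under 0.05 were 3790 and 3758. Without Veh 1 or without Veh 2 they were 726 and 738. Without Veh 3 the count was 1454, of which 891 were higher in valsartan, a smaller share than with all libraries. In these fits 0 passed. The 3 valsartan values lay wholly above the 3 vehicle values for 657 genes (3.53%) and wholly below them for 374 (2.01%). DESeq2's Wald test on the same counts called 36 genes at an adjusted p under 0.05, every one higher in valsartan, and 34 of these had at least 90% of their counts in Val 1. For the typical gene the 95% interval reached 0.76 on either side of the log2 difference, and the median difference of all genes was 0.01, or 0 without Val 1.

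The tested genes of the receptor system itself overlapped between valsartan and vehicle in every case. So did most genes, of which 3.53% lay wholly above vehicle and 2.01% wholly below. Agtr1a (chr13:30336441-30382867, plus strand), the main vascular target of valsartan, was at 3.79, 10.7 and 8.55 CPM in Val 1, 2 and 3, against 12.3, 9.17 and 8.15 CPM in Veh 1, 2 and 3. Val 1 was the lowest of the 6 and Veh 1 the highest, and Val 2 and Val 3 lay among the vehicle values. Its log2 difference was -0.36 (SE 0.36, 95% interval -1.10 to 0.38, edgeR adjusted p = 0.74), and -0.03 (SE 0.38) without Val 1. The interval includes losses and gains, so equality was not shown. Agtr1b had 2, 1 and 8 counts in the valsartan libraries and 5, 4 and 8 counts in the vehicle libraries, too few to be tested. Ace, which makes angiotensin II, was at 174.5, 390 and 448 CPM in the valsartan libraries, against 448, 299 and 504 CPM in the vehicle libraries, a log2 difference of -0.31 (SE 0.53) that was 0 without Val 1. Ren1 was at 1.46, 0.735 and 1.08 CPM in the valsartan libraries, against 1.72, 0.733 and 0.494 CPM in the vehicle libraries (log2 difference 0.15, SE 0.73). Agt was at 2.45, 2.12 and 2.84 CPM in the valsartan libraries, against 1.94, 4.35 and 2.51 CPM in the vehicle libraries (log2 difference -0.25, SE 0.50). Neither Ren1 nor Agt exceeded 4.35 CPM in any of the 6 libraries, and the values of the groups were interleaved.

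Of 18 renin-angiotensin genes 14 were tested and 0 passed, with 7 above and 7 below a difference of 0 and a median log2 difference of -0.04 (0.02 without Val 1). Agtrap, whose protein binds the type 1 receptor and promotes its internalisation, had the smallest p of the list. It was at 129.9, 73.3 and 68.0 CPM in the valsartan libraries, against 56.1, 71.5 and 78.5 CPM in the vehicle libraries (log2 difference 0.40, SE 0.19, unadjusted p = 0.0472, edgeR adjusted p = 0.474). The difference was 0.04 without Val 1.

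The natriuretic peptides oppose angiotensin II and are cleared by neprilysin and Npr3. Their list, described in the same way, held the peptide genes with receptors, processing and clearing proteins, kinases and phosphodiesterases. Of the peptide genes only Nppc was tested, with a log2 difference of 0.29 (SE 0.93) and at most 0.649 CPM in any of the 6 libraries. Of 16 genes 14 were tested, 0 passed and 13 lay below 0, and the median log2 difference was -0.37, against -0.03 without Val 1. None was without overlap, where 3.53% of all genes lay wholly above vehicle and 2.01% wholly below. Npr3, the clearance receptor, was at 7.86, 8.56 and 10.7 CPM in Val 1, 2 and 3, against 19.1, 16.9 and 9.79 CPM in the vehicle libraries (log2 difference -0.76, SE 0.45, edgeR adjusted p = 0.527). Val 1 and Val 2 were below all vehicle libraries, whereas Val 3 was above Veh 3. Mme was at 25.2, 39.9 and 39.5 CPM in the valsartan libraries, against 63.9, 67.5 and 18.9 CPM in the vehicle libraries (log2 difference -0.52, SE 0.43, edgeR adjusted p = 0.679), with Veh 3 the lowest of all 6. The atrial and B-type peptide genes Nppa and Nppb had at most 1 count in any of the 6 libraries.

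**Figure D2:**
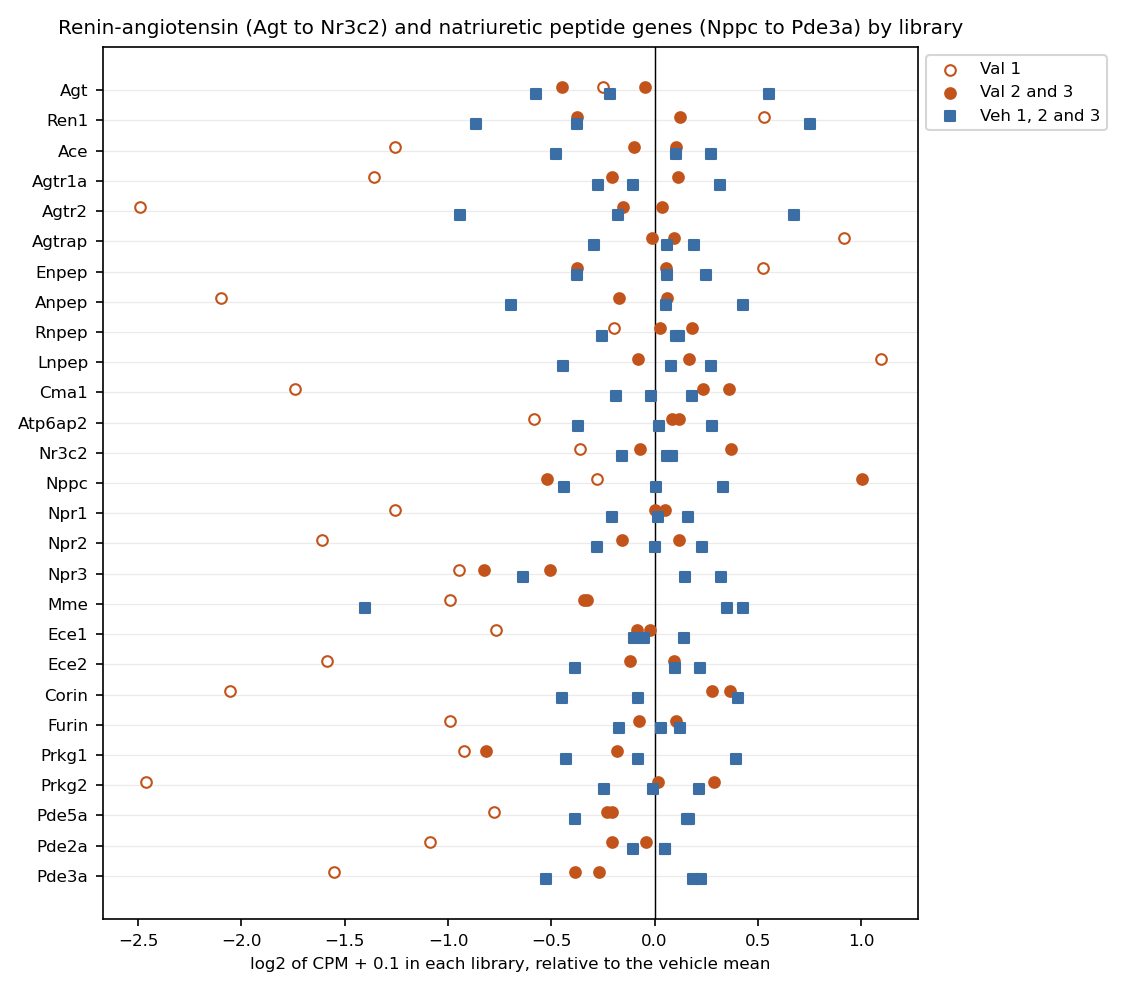
Level of 13 renin-angiotensin and 14 natriuretic peptide genes in each library, as log2 of CPM + 0.1 relative to the vehicle mean, with valsartan as circles (Val 1 open) above the vehicle squares of the same gene. Open circles of Val 1 lie left of the other valsartan libraries for Agtr1a and Ace, and the filled circles of Val 2 and Val 3 lie among the squares for most genes.

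The gene with the smallest p among those higher in valsartan and at or above 5 CPM was Erdr1, from the pseudoautosomal region, whose reads may be split between near-identical copies and whose level is therefore uncertain. Erdr1 was at 35.5, 13.5 and 11.9 CPM in Val 1, 2 and 3, against 4.98, 7.75 and 8.43 CPM in Veh 1, 2 and 3 (log2 difference 1.53, SE 0.41, unadjusted p = 0.000858, edgeR adjusted p = 0.474). All 3 valsartan values were above all 3 vehicle values, and the difference was 0.85 (SE 0.39) without Val 1. Fkbp5 (chr17:28399094-28517527, minus strand), a co-chaperone of steroid receptors that glucocorticoids induce, was at 372, 82.2 and 97.3 CPM in the valsartan libraries, against 37.5, 50.9 and 59.3 CPM in the vehicle libraries. The groups did not overlap for Fkbp5, and Val 1 was far above the other 5. Its log2 difference was 1.90 (SE 0.61, edgeR adjusted p = 0.474), and 0.87 (SE 0.55) without Val 1. Cdk2ap1, an inhibitor of the cell cycle kinase Cdk2, was at 32.5, 22.3 and 21.9 CPM in the valsartan libraries, against 20.5, 17.1 and 17.7 CPM in the vehicle libraries (log2 difference 0.47, SE 0.14, and 0.26 without Val 1). The groups did not overlap here either, with Val 2 and Val 3 close to Veh 1.

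For the other genes with the smallest p and a higher level, Val 1 carried most of the difference. Cry1, a repressor of the circadian clock, was at 54.3, 8.74 and 10.4 CPM in Val 1, 2 and 3, against 7.23, 8.52 and 7.57 CPM in the vehicle libraries, and its log2 difference of 1.65 (SE 0.53) was 0.30 without Val 1. Desmoplakin (Dsp), a desmosome protein of epithelia, was at 140.1, 9.43 and 8.31 CPM in the valsartan libraries, against 6.75, 4.67 and 7.20 CPM in the vehicle libraries (log2 difference 3.08, and 0.51 without Val 1). The water channel gene Aqp11 was at 189, 5.41 and 4.64 CPM in the valsartan libraries, against 4.94, 4.72 and 2.67 CPM in the vehicle libraries (log2 difference 4.01, and 0.29 without Val 1). Apobec3, a cytidine deaminase that restricts retroviruses, and Wee1, a kinase that holds back entry into mitosis, had log2 differences of 1.33 and 0.83, and 0.26 and 0.32 without Val 1. Cd96, a receptor of T and NK cells, was at 63.0, 0.778 and 0.48 CPM in the valsartan libraries and at 0.706, 0.412 and 0.288 CPM in the vehicle libraries. The mucin gene Muc5b was at 31.0 CPM in Val 1 and at or below 0.0441 CPM in the other 5 libraries.

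Among the genes lower in valsartan, the smallest p belonged to Col2a1 (chr15:97975602-98004695, minus strand), which encodes the fibrillar collagen of cartilage. Col2a1 was at 1.66, 2.59 and 2.12 CPM in Val 1, 2 and 3, against 58.9, 3.39 and 16.7 CPM in Veh 1, 2 and 3 (log2 difference -3.63, SE 1.10, edgeR adjusted p = 0.474; -3.48, SE 1.31, without Val 1). The groups did not overlap, and the vehicle values spread far more widely than the valsartan values, with Veh 2 close to Val 2. Leaving out 1 library at a time gave log2 differences from -4.15 to -2.28. The cartilage list as a whole had 11 tested members, 9 below 0 and 0 past the adjusted threshold. Col2a1 was the 1 member wholly below vehicle, against 2.01% of all genes. Another 1 member lay wholly above vehicle, against 3.53% of all genes. The summed level of the list was 97.4, 155 and 179 CPM in the valsartan libraries and 396, 130.7 and 214 CPM in the vehicle libraries. Veh 1 was the highest for the sum as for Col2a1, and the part of cartilage content in the result was not tested. Aggrecan (Acan), the main proteoglycan of cartilage, was at 31.5, 30.1 and 37.2 CPM in the valsartan libraries, against 105, 18.1 and 54.8 CPM in the vehicle libraries, and overlapped.

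The other 9 genes with the smallest p and a lower level had log2 differences between -0.89 and -0.38. Zfp827, a zinc finger gene, was at 11.7, 10.8 and 11.9 CPM in Val 1, 2 and 3, against 16.0, 15.2 and 13.7 CPM in the vehicle libraries, without overlap (log2 difference -0.38, SE 0.16, and -0.40 without Val 1). Val 1 lay with the other valsartan libraries for this gene. Ano1, a calcium-activated chloride channel of smooth muscle, was at 20.5, 32.9 and 35.7 CPM in the valsartan libraries, against 62.6, 44.3 and 41.5 CPM in the vehicle libraries, again without overlap (log2 difference -0.74, SE 0.29, edgeR adjusted p = 0.474, and -0.53 without Val 1). Rarb, a retinoic acid receptor, was at 3.50, 9.90 and 8.71 CPM in the valsartan libraries, against 15.3, 13.5 and 11.8 CPM in the vehicle libraries (log2 difference -0.88, and -0.54 without Val 1). Sox5, a transcription factor of cartilage formation, and Zfp979, which belongs to a cluster of similar zinc finger genes and is uncertain for that reason, also had groups without overlap, with log2 differences of -0.72 and -0.70, and of -0.41 and -0.42 without Val 1. Rgs2, which limits signalling from Gq-coupled receptors such as the type 1 angiotensin receptor, was at 75.4, 102 and 79.6 CPM in the valsartan libraries, against 224 CPM in Veh 2 and 77.8 CPM in Veh 3, with Veh 1 between these. The log2 difference of Rgs2 was -0.89 (SE 0.37, edgeR adjusted p = 0.474), and Veh 3 lay among the valsartan values. Trib1, Nr4a2 and Pnkd showed the same arrangement of libraries, with Veh 3 at or below a valsartan value and log2 differences of -0.67, -0.75 and -0.61.

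Without Val 1, 6 genes in each direction had the smallest p, and none passed (edgeR adjusted p = 1). Among the higher ones were Erdr1, Cdk2ap1 and Bst2, together with Fam107a, an actin-associated protein, and Zbtb16, a zinc finger transcription factor. Zbtb16 was at 14.0, 25.2 and 70.5 CPM in Val 1, 2 and 3, against 8.91, 13.1 and 14.7 CPM in the vehicle libraries, with a log2 difference of 1.97 (SE 0.91) without Val 1 and 1.58 (SE 0.85) with it. Val 1 overlapped the vehicle values for Zbtb16, and Val 3 was the highest of the 6. Fam107a was at 4.62, 14.1 and 14.8 CPM in the valsartan libraries, against 7.72, 5.77 and 9.96 CPM in the vehicle libraries, so that Val 1 was the lowest. Lower without Val 1 were Col2a1, Zfp827, Thnsl1, the retinal reductase gene Dhrs3, Gtf2ird1 and the Notch ligand Dll1, with log2 differences from -3.48 to -0.40.

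**Figure D3:**
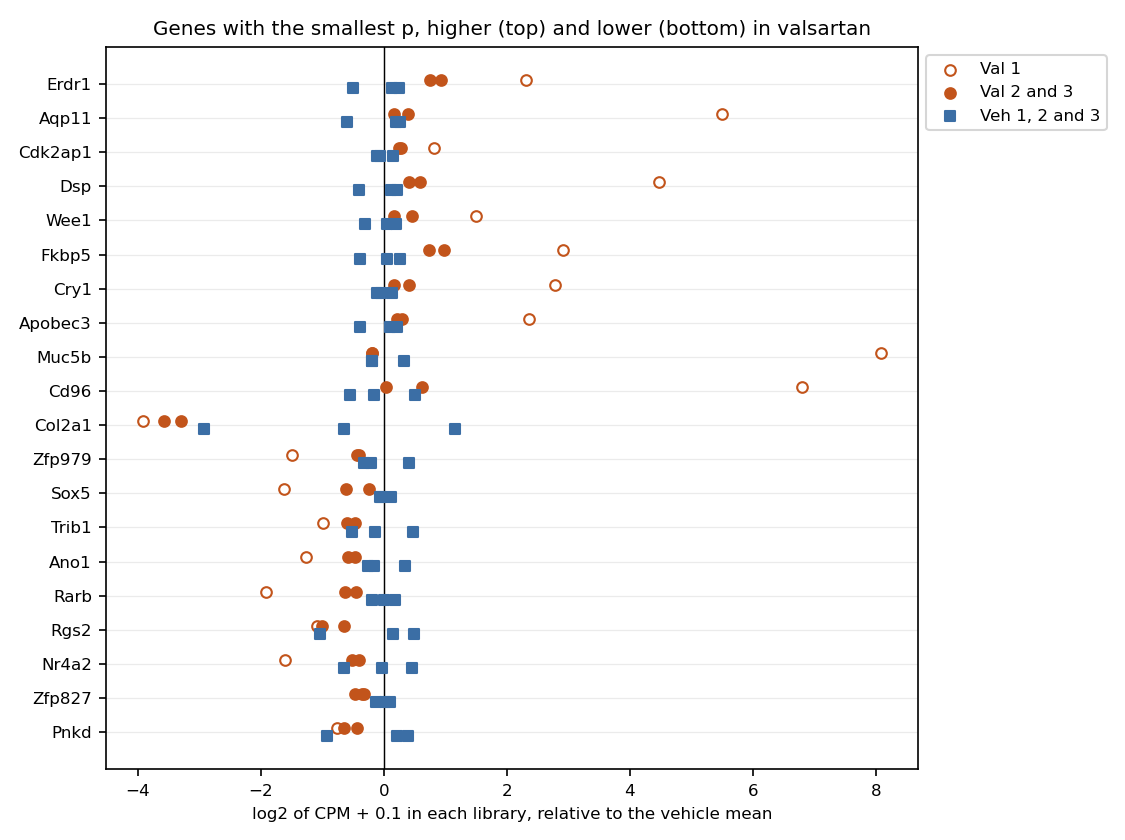
Level of the 10 genes with the smallest p among those higher (top) and lower (bottom) in valsartan, as log2 of CPM + 0.1 in each library relative to the vehicle mean, with Val 1 as open circles, Val 2 and 3 as filled circles and vehicle as squares. Val 1 lies far right of all other points for Aqp11, Dsp, Cry1, Muc5b and Cd96, and for Col2a1 the squares spread widely to the right of the circles.

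All members of the interferon response list were on the higher side in valsartan, although none passed the test. Type I interferon binds its receptor and activates a complex of Stat proteins and Irf9 that binds an interferon-stimulated response element in target promoters and induces antiviral genes. All 22 listed genes were tested and all 22 had log2 differences above 0, from 0.08 for Gbp2 to 1.32 for Ifi44, with a median of 0.56, against 0.01 over all genes tested. In the same fit 9438 of 18628 genes (50.7%) lay above 0. Without Val 1 the 22 differences were again all above 0, with a median of 0.66, where 50.1% of all genes lay above 0. For 9 members, among them Bst2, Ddx58, Irf7, Oasl1, Rtp4, Stat2, Usp18 and Xaf1, the valsartan values lay wholly above the vehicle values, against 3.53% of all genes. Of the 22 genes 1 had an unadjusted p under 0.05, a lower share than the 10% of all genes higher in valsartan at that level. The summed level of the list was 831.9, 791.5 and 1086 CPM in Val 1, 2 and 3, against 746, 543 and 567 CPM in Veh 1, 2 and 3, a narrow gap between Val 2 and Veh 1.

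Promoter sequence is shown for 3 members to set the response element beside their levels. The sequences are the 150 bases before the RefSeq start on the strand of the gene (GRCm38.p6), in lower case, with capitals marking GAAANNGAAA, where N is any base, searched on both strands with overlapping matches allowed. Bst2 lies at chr8:71537473-71537622 (minus strand), Isg15 at chr4:156200819-156200968 (minus strand) and Irf7 at chr7:141266425-141266574 (minus strand).
Bst2: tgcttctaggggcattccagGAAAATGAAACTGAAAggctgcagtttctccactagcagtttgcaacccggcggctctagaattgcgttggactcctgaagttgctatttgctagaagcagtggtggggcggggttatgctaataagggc
Isg15: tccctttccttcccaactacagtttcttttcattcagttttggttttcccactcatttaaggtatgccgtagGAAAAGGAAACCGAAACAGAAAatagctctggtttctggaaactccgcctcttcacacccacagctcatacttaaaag
Irf7: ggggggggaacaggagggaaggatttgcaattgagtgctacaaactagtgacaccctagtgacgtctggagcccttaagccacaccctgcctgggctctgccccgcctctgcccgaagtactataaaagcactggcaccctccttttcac
The Bst2 window holds 2 overlapping matches, the Isg15 window 3 overlapping matches and the Irf7 window none. Within 250 bases before the start, 9 of 19 RefSeq starts of the list held a match (17 of 22 genes could be matched to a start), against 978 of 32851 starts of all genes (2.98%). A match describes the letters of the window and is not a measured binding site. The list was written as interferon response genes, so this share describes the list and not an effect of valsartan.

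The signalling members of the list were moderately expressed. Irf7 (chr7:141262706-141266481, minus strand), the transcription factor that amplifies interferon production, was at 58.3, 47.7 and 105 CPM in Val 1, 2 and 3, against 40.9, 25.0 and 24.8 CPM in Veh 1, 2 and 3. Val 3 was the highest library and Veh 1 came close to Val 2. The log2 difference of Irf7 was 1.22 (SE 0.60, edgeR adjusted p = 0.474), and 1.34 (SE 0.66) without Val 1. Stat2, which carries the interferon signal to the nucleus, was at 95.3, 65.0 and 82.2 CPM in the valsartan libraries, against 62.6, 55.7 and 55.0 CPM in the vehicle libraries (log2 difference 0.49, SE 0.28). The lowest valsartan value of Stat2 was 65.0 CPM and the highest vehicle value 62.6 CPM.

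The antiviral and regulatory members had differences in the same direction with wide errors, and many of them overlapped between the groups. Bst2 (chr8:71534255-71537456, minus strand), tetherin, which holds budding virus at the cell surface, was at 72.5, 86.5 and 132 CPM in Val 1, 2 and 3, against 64.0, 63.9 and 61.3 CPM in Veh 1, 2 and 3. The 3 vehicle values lay close together (63.1 ± 1.53 CPM, mean ± SD, n = 3) and below all valsartan values (96.9 ± 31.0 CPM, n = 3). Its log2 difference was 0.62 (SE 0.34, edgeR adjusted p = 0.487), and 0.79 (SE 0.38, unadjusted p = 0.0477) without Val 1. Usp18, which removes Isg15 from proteins and damps interferon signalling, was at 34.6, 16.7 and 19.5 CPM in the valsartan libraries, against 15.9, 8.89 and 8.89 CPM in the vehicle libraries (log2 difference 1.07, SE 0.60). Isg15, a ubiquitin-like protein, overlapped, at 25.5, 21.6 and 31.1 CPM in the valsartan libraries against 25.6, 11.2 and 12.7 CPM in the vehicle libraries (log2 difference 0.66, SE 0.59). Veh 1 was the highest vehicle library for Isg15, Ifit1, Ifit3, Mx1 and Mx2, and each of these overlapped. The guanylate-binding protein gene Gbp2 had the smallest difference, at 44.8, 73.0 and 91.6 CPM in the valsartan libraries against 71.4, 57.7 and 68.5 CPM in the vehicle libraries. Val 1 was the lowest of the 6 for Gbp2 and Gbp3, and the highest of the 6 for Stat2 and Usp18.

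**Figure D4:**
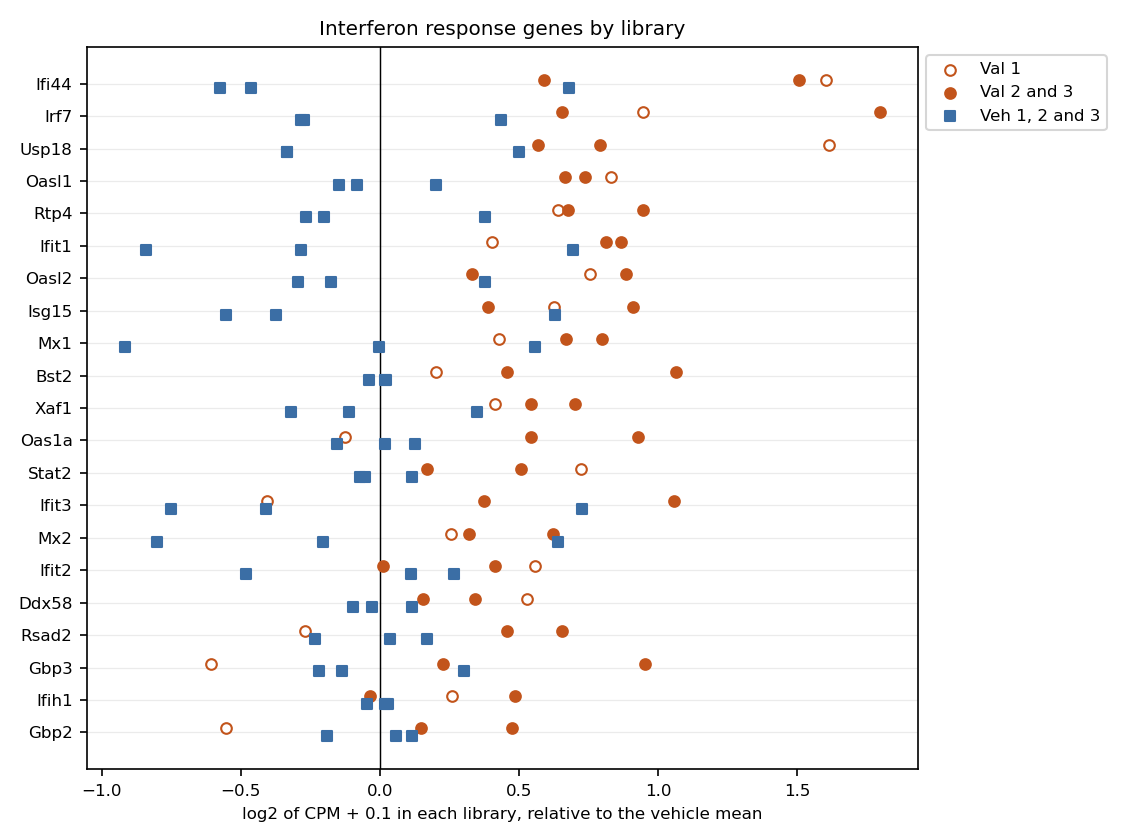
Level of 21 of the 22 interferon response genes in each library, as log2 of CPM + 0.1 relative to the vehicle mean, ordered by log2 difference, with Val 1 as open circles, Val 2 and 3 as filled circles and vehicle as squares. For 8 genes all circles lie to the right of all squares, and the squares of Veh 1 lie furthest right for Isg15, Ifit1 and Ifit3.

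The genes that angiotensin II is known to induce were mostly below vehicle, and their median moved towards 0 without Val 1. Of 20 listed genes 19 were tested and 0 passed; 17 lay below 0 with a median log2 difference of -0.47, against 15 below 0 and a median of -0.12 without Val 1. For 3 members, among them Thbs1 and Ctgf, the valsartan values lay wholly below the vehicle values, against 2.01% of all genes. Thrombospondin 1 (Thbs1, chr2:118111876-118127133, plus strand), a matricellular protein that activates TGF-beta, was at 75.7, 118 and 110.9 CPM in Val 1, 2 and 3, against 181, 284 and 266 CPM in Veh 1, 2 and 3. Its log2 difference was -1.26 (SE 0.54, 95% interval -2.37 to -0.15, unadjusted p = 0.0272, edgeR adjusted p = 0.474), and -1.09 (SE 0.63) without Val 1. Ctgf, a connective tissue growth factor, was at 134, 328 and 255 CPM in the valsartan libraries, against 694, 332 and 474 CPM in the vehicle libraries, with Val 2 and Veh 2 almost equal (log2 difference -1.06, SE 0.72, and -0.78 without Val 1). Endothelin 1 (Edn1), a vasoconstrictor peptide, overlapped, at 8.49, 9.34 and 11.5 CPM in the valsartan libraries against 20.8, 10.6 and 25.4 CPM in the vehicle libraries. The difference for Edn1 was -0.95 on the log2 scale (SE 0.46, unadjusted p = 0.0483), and -0.87 without Val 1.

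Several members of that list had differences smaller than their standard errors. Tgfb1 was at 73.5, 87.8 and 77.3 CPM in the valsartan libraries, against 63.8, 82.3 and 92.8 CPM in the vehicle libraries (log2 difference 0.00, SE 0.30). The NADPH oxidase gene Nox4, at -0.34 (SE 0.59) with Val 1, was at -0.01 without it. Vcam1, which captures leukocytes, had a log2 difference of -0.02 (SE 0.36, 95% interval -0.76 to 0.72). Osteopontin (Spp1), a marker of modulated smooth muscle and macrophages, was at 32.4, 2304 and 2270 CPM in Val 1, 2 and 3, against 782, 3053 and 2551 CPM in the vehicle libraries, so that Val 1 was the lowest and Veh 1 the next. Myc and Ccl2 were the members above 0. Myc was at 88.1, 17.3 and 17.5 CPM in the valsartan libraries against 15.9, 19.7 and 20.6 CPM in the vehicle libraries, and its log2 difference of 1.13 was -0.11 without Val 1.

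The summed level of matrix genes was low in Val 1 and close together in the other 5 libraries, while single members varied. All 26 fibrillar matrix and crosslinking genes were tested, 0 passed and 26 lay below 0 with a median log2 difference of -0.36, whereas without Val 1 11 lay below 0 and the median was 0.05. The summed level was 13929, 52098 and 54157 CPM in Val 1, 2 and 3, against 58477, 50199 and 55849 CPM in Veh 1, 2 and 3. Col1a1, the main chain of type I collagen, was at 2239, 10410 and 9959 CPM in the valsartan libraries, against 10261, 9031 and 9683 CPM in the vehicle libraries. For Col1a1 the log2 difference was -0.36 (SE 0.74, edgeR adjusted p = 0.851), and 0.08 without Val 1. Col3a1 was at 3931, 16866 and 18352 CPM in the valsartan libraries, against 14831, 16810 and 18121 CPM in the vehicle libraries. Val 2 and Val 3 were thus within the vehicle values or just above them for both collagens.

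Elastin and lysyl oxidase were the 2 of 26 matrix genes without overlap, both lower in valsartan, against 2.01% of all genes. Elastin (Eln, chr5:134702593-134747323, minus strand), the protein of elastic fibres, was at 1583, 1690 and 2216 CPM in Val 1, 2 and 3, against 10956, 2469 and 3665 CPM in Veh 1, 2 and 3 (log2 difference -1.64, SE 1.11, 95% interval -3.92 to 0.64, edgeR adjusted p = 0.593). Veh 1 was far above the other 5, and leaving out 1 library at a time gave log2 differences from -2.00 to -0.78, with -1.55 without Val 1. Lox, which crosslinks elastin and collagen, was at 102, 283 and 300 CPM in the valsartan libraries, against 443, 348 and 369 CPM in the vehicle libraries (log2 difference -0.76, SE 0.61, and -0.41 without Val 1). Fibulin 5 (Fbln5), which guides elastic fibre assembly, overlapped, at 144, 218 and 256 CPM in the valsartan libraries against 536, 193 and 363 CPM in the vehicle libraries. Veh 1, the library highest in Eln and Fbln5, was also the highest of the 6 in Col2a1, in smooth muscle actin (Acta2, 1505 CPM) and in Ctgf, and the part of these in the result was not tested.

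The summed level of contractile smooth muscle genes was also lowest in Val 1. All 20 were tested, 0 passed and 20 lay below 0, with a median log2 difference of -0.40, and 16 lay below 0 with a median of -0.10 without Val 1. The summed level was 1904, 3804 and 4150 CPM in Val 1, 2 and 3, against 5202, 3692 and 5544 CPM in the vehicle libraries, with Val 2 and Val 3 above Veh 2. Acta2 was at 406, 852 and 903 CPM in the valsartan libraries, against 1505, 614 and 1274 CPM in the vehicle libraries (log2 difference -0.65, SE 0.78, and -0.37 without Val 1). Myh11 had a log2 difference of -0.24 (SE 0.68), and 0.02 without Val 1. The members with valsartan values wholly below the vehicle values were Ldb3, Tpm1 and Tpm2, 3 of 20 against 2.01% of all genes, and skeletal muscle also expresses them. Tpm1, a tropomyosin, was at 199, 331.5 and 306 CPM in the valsartan libraries, against 366.5, 610 and 587 CPM in the vehicle libraries (log2 difference -0.90, SE 0.90, and -0.71 without Val 1). Of 20 skeletal muscle genes 18 lay below 0, the median log2 difference was -2.09 (-2.28 without Val 1), and the summed level was 1681, 1209 and 925 CPM in the valsartan libraries, against 465, 8560 and 7460 CPM in the vehicle libraries. Veh 2 and Veh 3 were the highest libraries for Tpm1 as for skeletal muscle, and the part of skeletal muscle in the result was not tested.

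Cell cycle genes were above vehicle through Val 1. All 25 were tested, 0 passed and 25 lay above 0, with a median log2 difference of 2.57, and 23 had an unadjusted p under 0.05, against 10% of all genes. Without Val 1 the median was 0.13 and none of the 25 had an unadjusted p under 0.05. Mki67, a marker of dividing cells, was at 597, 25.5 and 23.1 CPM in Val 1, 2 and 3, against 17.0, 25.4 and 23.5 CPM in the vehicle libraries. Top2a, which untangles replicated DNA, was at 665, 23.8 and 19.2 CPM in the valsartan libraries, against 17.2, 23.2 and 22.2 CPM in the vehicle libraries. Outside Val 1 the 5 libraries held 17.0 to 25.5 CPM of Mki67, and Val 1 was also the library with the thymus transcripts given above. The part of thymus content in the cell cycle result was not tested.

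Most inflammatory genes lay below 0 with Val 1 and not without it. Of 24 cytokine and adhesion genes, all tested, 0 passed and 19 lay below 0 with a median log2 difference of -0.37, against 11 below 0 and a median of 0.01 without Val 1. Il1b, a macrophage cytokine, was at 2.54, 80.7 and 45.2 CPM in Val 1, 2 and 3, against 27.6, 156 and 76.2 CPM in the vehicle libraries (log2 difference -1.01, SE 1.18). Ccl5, a chemokine that attracts T cells, was at 9.78, 2.34 and 3.64 CPM in the valsartan libraries, against 2.07, 3.35 and 6.05 CPM in the vehicle libraries, with Val 1 the highest (log2 difference 0.46, SE 0.76). The monocyte attractant Ccl2 was at 5.03, 46.9 and 26.9 CPM in the valsartan libraries, against 18.0, 28.3 and 29.8 CPM in the vehicle libraries (log2 difference 0.05, SE 0.79). Macrophage genes, 18 tested and 0 passed, had a summed level of 735, 2594 and 2428 CPM in the valsartan libraries, against 1248, 2759 and 3139 CPM in the vehicle libraries. Veh 1 had the lowest macrophage sum of the vehicle libraries and also the lowest Il1b. Immediate early genes, which growth stimuli and tissue handling both induce, were all tested and 0 passed, with 21 of 22 members below 0 and a median of -0.48, against 18 and -0.19 without Val 1. Of these, Nr4a1 was at 64.9, 89.6 and 57.5 CPM in the valsartan libraries, against 131.1, 219 and 61.7 CPM in the vehicle libraries (log2 difference -0.96, SE 0.43, unadjusted p = 0.0353, edgeR adjusted p = 0.474).

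Respiratory chain genes had log2 differences below 0 with and without Val 1. Every member overlapped between the groups, as did most genes, of which 3.53% lay wholly above vehicle and 2.01% wholly below. All 21 were tested, 0 passed and 21 lay below 0 in both fits, with median log2 differences of -0.46 and -0.37 without Val 1. The summed level was 6173, 7670 and 6509 CPM in Val 1, 2 and 3, against 11138, 12303 and 3899 CPM in Veh 1, 2 and 3, so that Veh 3 was the lowest of the 6. The median was -0.81 without Veh 3, -0.19 without Veh 2 and -0.30 without Veh 1. Uqcrc1, a core subunit of complex III, was at 270, 369 and 295 CPM in the valsartan libraries, against 596, 656 and 170.7 CPM in the vehicle libraries (log2 difference -0.61, SE 0.41, edgeR adjusted p = 0.589). Fat genes had 15 of 18 below 0 and a summed level of 5078, 11791 and 10085 CPM in the valsartan libraries, against 13667, 15712 and 4857 CPM in the vehicle libraries, with Veh 3 again the lowest. The part of fat and skeletal muscle content in the respiratory chain values was not tested.

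**Figure D5:**
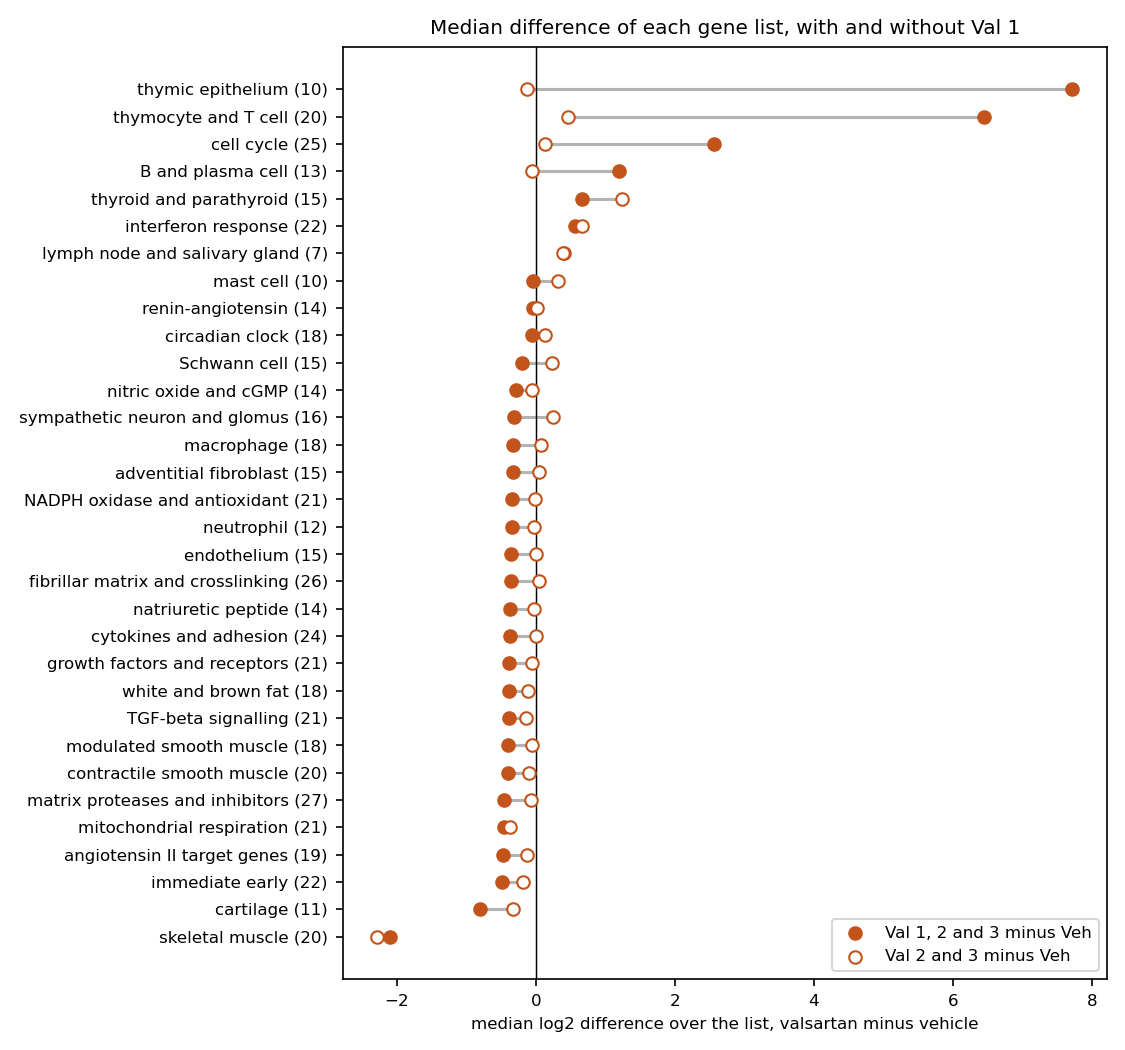
Median log2 difference, valsartan minus vehicle, of each gene list (number of tested members in brackets), filled with all 3 valsartan libraries and open without Val 1. Thymic epithelium, thymocyte and cell cycle lists lie at 7.72, 6.45 and 2.57 with Val 1 and between -0.12 and 0.47 without it, matrix and artery lists move to near 0, and the interferon list stays at 0.56 and 0.66.

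The difference made by valsartan was then set beside that on the other schedule, in the other strain and under the combined drug. No gene passed a test of the difference between the B6 prophylactic and the B6 therapeutic valsartan effect in edgeR (0% of 18628 called, 2.97% at an unadjusted p under 0.05, smallest adjusted p = 0.955, and 18 called by DESeq2). Without Val 1 the share at an unadjusted p under 0.05 was 0.992%. None passed the test against the 129X1 prophylactic effect either (0% called, 14% at an unadjusted p under 0.05 but 1.3% without Val 1, smallest adjusted p = 0.329, and 24 called by DESeq2). At an unadjusted p under 0.05, the valsartan effect covered 1.35% of genes in B6 therapeutic and 4.11% in 129X1 prophylactic mice. The share was 10.5% in B6 prophylactic mice, and 0.433% without Val 1. Rag1 was also high in libraries of the side comparisons. In B6 therapeutic mice it was at 869 CPM in valsartan library 1, and at 756 and 126 CPM in vehicle libraries 2 and 3. In 129X1 prophylactic mice it was at 122 CPM in valsartan library 3, and at 59.7 and 559 CPM in vehicle libraries 2 and 3. Leaving out every library at or above 10 CPM of Rag1 left only vehicle library 1 in each of these vehicle groups, so the shares of that fit are not given. The part of thymus content in the shares above was not tested. For the interferon list the median log2 difference was 0.56 in B6 prophylactic, 0.39 in B6 therapeutic (20 of 22 above 0) and -0.15 in 129X1 prophylactic mice (9 of 22 above 0). In the test of the difference between the strains 1 of the 22 had an unadjusted p under 0.05, and 0 passed. Usp18 differed between the strains by 1.65 (unadjusted p = 0.0615) and Irf7 by 1.49 (unadjusted p = 0.0881), neither past the threshold. Agtr1a had log2 differences of -0.36 in B6 prophylactic, -0.14 in B6 therapeutic and 0.24 in 129X1 prophylactic mice. Col2a1 had log2 differences of -3.63 in B6 prophylactic, -1.21 in B6 therapeutic and 0.76 in 129X1 prophylactic mice, and the difference between the strains was -4.38 (unadjusted p = 0.00683, edgeR adjusted p = 0.329).

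Valsartan and sacubitril/valsartan were given to B6 mice for the same 16 days at different doses, 27 and 60 mg/kg/day, and were compared with the same 3 vehicle libraries. No gene passed edgeR's test of valsartan minus sacubitril/valsartan (0% of 18628 called, 12.9% at an unadjusted p under 0.05 but 0.945% without Val 1, smallest adjusted p = 0.3), and DESeq2 called 18. With all libraries the interferon list had a median log2 difference of 0.56 under valsartan and 0.30 under sacubitril/valsartan, each against vehicle. Thbs1 was at -1.26 (SE 0.54) under valsartan and -0.93 (SE 0.54) under sacubitril/valsartan, and Erdr1 at 1.53 (SE 0.41) and 1.16 (SE 0.40). Because the vehicle libraries are shared, likeness between these values is not separate evidence. Fkbp5 had log2 differences of 1.90 under valsartan (0.87 without Val 1) and 0.18 under sacubitril/valsartan, and the direct difference of 1.72 had an edgeR adjusted p of 0.387. When sacubitril/valsartan library 1 or 3 was left out, Car6 and Wfdc12 passed as lower in valsartan. Car6, a carbonic anhydrase secreted by salivary glands, was at 0.208, 0.389 and 0.28 CPM in Val 1, 2 and 3, against 0.126, 2238 and 0.299 CPM in the sacubitril/valsartan libraries, so 1 library carried the difference (edgeR adjusted p = 0.00349 and 0.00564 without libraries 1 and 3).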

How the data were processed

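RNA of 36 ligated left carotid arteries (12 groups of 3) was sequenced from stranded mRNA libraries, per the labels' protocols. Reads were trimmed with Trimmomatic 0.36, aligned to GRCm38 with STAR 2.5.2b and counted with featureCounts of Subread 1.5.0p3, per the submitters' processing notes; strand setting and annotation release are not given in the sources used here. The deposited values are raw counts per gene symbol, made by the authors, for 49568 symbols. Column names matched sample titles for all 36 libraries.

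Genes were filtered with filterByExpr, scaled with TMM factors and tested with edgeR 4.0.16 (R 4.3.3): a quasi-likelihood fit of 12 group means, 24 residual degrees of freedom, with Benjamini-Hochberg adjustment over all genes tested. Levels are CPM on TMM-scaled totals and differences are log2, the first-named group minus the second. SEs follow from the F statistic. The 6 libraries compared held 22.0 to 23.76 M counts, and the whole series 18.96 to 28.97 M. A CPM value is not divided by gene length, so levels are not compared between genes. P-values set each difference against the spread between arteries within groups, estimated over all 12 groups and not from the 6 libraries alone. The tests were tried on simulated counts.

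The genes named were 7 of the drug pathway, the 10 smallest p in each direction at or above 5 CPM, the 6 smallest without Val 1, and the 2 smallest per list at or above 2 CPM. Further members of a list are given where their groups did not overlap or their role calls for it, chosen after their values were seen. A few genes these rules select are not reported here. The 32 lists were written from general knowledge. The members of the comparison and the lists were chosen with earlier results of these data known. Lists are described by counts and medians, without a set test. Alternatives were DESeq2 1.42.0 (size factors, and its Wald test), voom of limma 3.58.1 with quality weights, no filter, only the 6 libraries, a robust prior, marker scores or the title number as covariates, and libraries left out. Promoters and coordinates follow RefSeq (GRCm38.p6) and GENCODE M21 (GRCm38), 1-based.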

Additional observations from a re-analysis of the deposited data

How the results depend on the processing

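The count of 0 genes past an adjusted p of 0.05 for valsartan minus vehicle was 0 under every alternative run in edgeR and limma, including each of the 6 fits without 1 library, and 36 under DESeq2's Wald test. DESeq2 called 18 genes for the difference from the therapeutic effect, 24 for the difference from the 129X1 effect and 18 for valsartan minus sacubitril/valsartan, against 0 each in edgeR. Leaving out 1 library at a time gave 0 to 2 genes for valsartan minus sacubitril/valsartan and 0 for the other comparisons. Without the library of the lowest title number in each group again 0 genes passed. No paired analysis was possible because no label says which libraries of the groups belong together, and replicates are numbered in accession order only. With the title number as a covariate 0 genes passed and 1381 had an unadjusted p under 0.05.

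Of 1492 alternative values of named genes, 1429 kept their direction and side of the threshold, 60 turned round and 3 passed (Aqp11, Tbata and Krt8 under DESeq2). Of 384 alternative list medians 357 moved by less than the spread between replicates and 27 by more. The 27 were in the lists of thymus, cell cycle, B cell, TGF-beta, circadian clock, lymph node and salivary gland, thyroid and skeletal muscle genes. That spread included Val 1 itself, so a move within it does not show that a list median held without Val 1. For example, the fibrillar matrix median went from -0.36 to 0.05 without Val 1 and stayed within the spread. Without Val 1, 6 lists moved by more. They were thymic epithelium (-0.12), thymocyte and T cell (0.47), cell cycle (0.13), B and plasma cell (-0.05), TGF-beta signalling (-0.14) and circadian clock (0.13). With voom quality weights, which gave Val 1 a weight of 0.091, the differences that turned were Ren1 (-0.03), Ace (0.12), Muc5b (-0.52), Gtf2ird1 (-0.62), Anpep (0.07), Myc (-0.04), Nqo1 (-0.12), Tbata (-0.10), Icam2 (-0.15), Smoc2 (0.06) and Stmn2 (0.05). With the skeletal muscle, fat and Schwann cell scores they were Muc5b (-0.22), Gtf2ird1 (-0.28), Cd79b (-0.39) and Icam2 (-0.02), and with the thymocyte score Agt (0.06), Gtf2ird1 (-0.20) and Cd79b (-0.35). Without libraries at or above 10 CPM of Rag1 they were Ren1 (-0.10), Ace (0.01), Gtf2ird1 (-0.57), Myc (-0.10), Nqo1 (-0.21), Tbata (-0.17), Cd79b (-0.31), Icam2 (-0.18), Smoc2 (0.06) and Stmn2 (0.04). Without the lowest title number of each group they were Agtr1a (0.16), Ace (0.06), Gtf2ird1 (-0.54), Agtrap (-0.08), Myc (-0.21), Spr (0.04), Nqo1 (-0.24), Ighm (-0.10), Cd79b (-0.67), Icam2 (-0.06), Smoc2 (0.13), Slc18a1 (0.26), Stmn2 (0.18), Gldn (0.11), S100b (0.22) and Amy1 (0.10). Over the fits without 1 library, values ranged from -0.50 to 0.15 for Agt, -0.32 to 1.81 for Cd79b, -0.57 to 0.53 for Gtf2ird1, -0.18 to 0.95 for Icam2, -0.50 to 4.88 for Iyd, -0.05 to 0.22 for Kit, -1.91 to 10.83 for Muc5b, -0.11 to 1.49 for Myc, -0.22 to 0.78 for Nqo1, -0.17 to 0.79 for Ren1, -0.66 to 0.05 for Smoc2, -0.98 to 0.03 for Stmn2 and -0.16 to 9.26 for Tbata. The cause was not tested. The interferon median ranged from 0.44 to 0.79. With 3 libraries a group, the 95% interval reached 0.76 on either side for the typical gene, and this precision varied from gene to gene.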

Other observations

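Fkbp5, Zbtb16, Fam107a and Cry1, named above, are known to respond to glucocorticoids, so a list of 16 glucocorticoid-induced genes that includes them was written after their values had been seen. In valsartan minus vehicle 7 of the 16 lay above 0 and 9 below, with a median log2 difference of -0.20, and without Val 1 10 lay above 0 with a median of 0.09. The 4 genes that prompted the list were all above 0, and of the other 12 there were 3 above 0, or 6 without Val 1. No gene of the list passed. Tsc22d3, a target also known as Gilz, was at 99.2, 132 and 149 CPM in Val 1, 2 and 3, against 89.7, 93.5 and 161 CPM in Veh 1, 2 and 3 (log2 difference 0.15, SE 0.29). Sgk1, a kinase that steroid hormones induce, was at 40.4, 126 and 127 CPM in the valsartan libraries, against 88.1, 160 and 177.9 CPM in the vehicle libraries (log2 difference -0.54, SE 0.39). The list held differences of both signs. Fkbp5 and Cry1 were the only members without overlap, both wholly above vehicle, against 3.53% of all genes. Both are among the 4 genes whose values prompted the list.

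Thyroid genes were high in Val 2, with a summed level of 104.5, 2855 and 209 CPM in Val 1, 2 and 3, against 52.4, 512 and 23.7 CPM in the vehicle libraries. Genes of sympathetic neurons and glomus cells summed to 136, 2054 and 1527 CPM in the valsartan libraries, against 1929, 1281 and 1403 CPM in the vehicle libraries, with Val 1 the lowest of the 6. Schwann cell genes summed to 827, 2600 and 2598 CPM in the valsartan libraries, against 3002, 1855 and 1811 CPM in the vehicle libraries, and Val 1 was the lowest of all 36 libraries.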
